A study of Mus musculus with 6 samples.

Results

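The 10 genes described here are brakes of the cell cycle and the MYC antagonists tied to them, with Myc itself: the CIP/KIP inhibitors Cdkn1a and Cdkn1b, the INK4 inhibitors Cdkn2c and Cdkn2d, the retinoblastoma family genes Rb1, Rbl1 and Rbl2, the MXD genes Mxd3 and Mxd4, and Myc. They were taken by symbol from a table of 14416 genes, and all 10 were found in it and passed the filter on low counts that left 11382 genes for testing. RNA had been sequenced from Lin-Thy1.2+ innate lymphoid cells (ILCs) of the lung in 3 samples from RBM3KO mice and 3 from WT mice, all of strain C57BL/6J. RBM3KO mice lack the cold-inducible RNA-binding protein RBM3, and every animal of both genotypes had been challenged with Alternaria Alternata, an allergenic mould, in 3 doses of 25 µg within 7 days. ILCs are lymphocytes without rearranged antigen receptors. The sources used here do not give age, how the knockout allele was made, whether it acts in ILCs alone, the lineage antibodies or the number of animals per sample. All samples analysed here were challenged, so the values describe ILCs of allergen-exposed lungs. The comparison asks whether loss of RBM3 changed the transcripts of these genes.

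Entry into the cell cycle is driven by cyclin-dependent kinases (CDKs), which phosphorylate the retinoblastoma or pocket proteins and so release E2F transcription factors. CIP/KIP proteins bind several cyclin-CDK complexes, INK4 proteins bind CDK4 and CDK6, and the pocket proteins p107 (Rbl1) and p130 (Rbl2) also silence cell cycle genes as part of the DREAM complex of resting cells. MYC drives growth by binding E-boxes with its partner MAX, and MXD proteins bind MAX in its place and repress such genes. Much of the control of these proteins, p27 above all, acts on protein stability and phosphorylation, which RNA levels do not show.

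Total counts ran from 7498247 to 16936670 in the RBM3KO libraries and from 13339633 to 25068137 in the WT libraries, with RBM3KO replicate 3 at the low end. Levels are given in CPM, a count scaled to a common library total, and a gene without reads could still have 3 counts, or between 0.120 and 0.400 CPM, as far as counting error goes. Rbm3 stood at 26.8 ± 4.63 CPM in RBM3KO and 292 ± 22.0 CPM in WT (SD, n = 3 each), in accordance with the labels. All 9 markers listed for the sorted cells were detected in every library, with a sum of 4956 to 5186 CPM in RBM3KO and 4201 to 4579 CPM in WT. Of the markers of B cells and plasma cells, 6 of 8 listed names were in the table, with a sum of 34.6 to 44.5 CPM in RBM3KO and 56.3 to 78.6 CPM in WT. Cd79b gave the larger part of each sum, and its libraries overlapped between the genotypes (edgeR adjusted p = 0.511). Those of Cd79a were lower in RBM3KO without overlap (edgeR adjusted p = 0.0542). Ms4a1 was at 0 in RBM3KO replicates 1 and 3 and in no WT library. Igj was at 0 in all 3 RBM3KO libraries and in no WT library, and Blk was at 0 in no RBM3KO library and in WT replicates 1 and 3. The 13 detected markers of macrophages, monocytes, dendritic cells and granulocytes summed to 8.33 to 91.2 CPM in RBM3KO and 47.2 to 199.7 CPM in WT. Of the 10 tested, 7 had fold changes below 0 and 0 were called. The libraries of Ly6c2 were lower in RBM3KO without overlap (edgeR adjusted p = 0.0525). The 8 T cell markers summed to 522 to 681 CPM in RBM3KO and 439 to 556 CPM in WT. The 5 natural killer cell markers summed to 119 to 174 CPM in RBM3KO and 124 to 370 CPM in WT, with 4 of 5 fold changes below 0 and 0 called. The 10 markers of epithelium, endothelium and fibroblasts summed to 75.4, 76.2 and 331 CPM in RBM3KO and 88.3, 149 and 62.0 CPM in WT. RBM3KO replicate 3 stood apart here through the surfactant gene Sftpc, at 246 CPM. The 2 detected markers of red cells and platelets summed to between 0 and 1.70 CPM in RBM3KO and between 0.239 and 1.35 CPM in WT. In bulk samples such as these, fewer cells of a type and less RNA per cell cannot be told apart.

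Among the 10 genes, Mxd3 fell in RBM3KO ILCs, and the other 9 did not pass the test. Across all tested genes, 1.25% were called in either direction, 1.00% lower and 0.246% higher (edgeR's quasi-likelihood test, adjusted p under 0.05). Each log2 fold change is RBM3KO minus WT, and levels are CPM after TMM scaling unless stated otherwise. The 10 log2 fold changes ran from -2.17 to 0.40 with a median of -0.13, beside a median of 0.01 over all tested genes, and 4 were above 0. The libraries of the genotypes did not overlap for 4 of the 10 genes, with Cdkn1b, Myc and Rbl2 higher and Mxd3 lower in RBM3KO. Over all tested genes, 18.9% were separated, 8.43% with RBM3KO higher and 10.5% with RBM3KO lower. When any 1 of the 6 libraries was left out, 0 of the 10 genes were called.

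**Figure D1:**
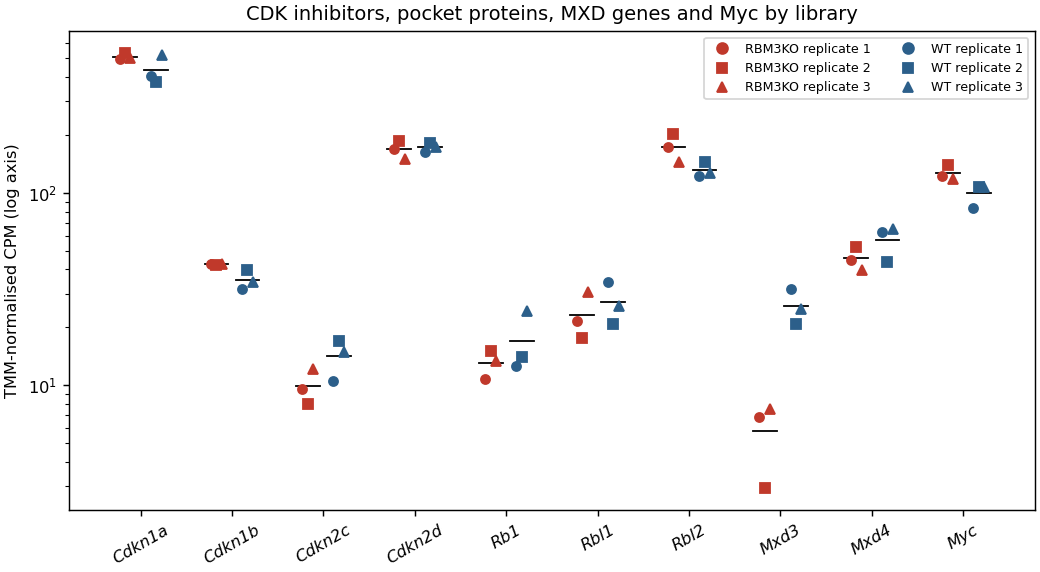
TMM-normalised CPM (log axis) of the 10 genes in each library, with RBM3KO in red and WT in blue, a symbol for each replicate and a bar at the mean of 3. Mxd3 lies between 2.93 and 7.54 CPM in RBM3KO and between 20.9 and 31.6 CPM in WT, while most other genes overlap or lie close together.

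MXD3 (MAD3) differs from other MXD proteins in that its mouse gene is transcribed in dividing progenitors, around S phase, rather than after exit from the cycle. Mxd3 (chromosome 13, 55325168 to 55329823, minus strand, mm10) received 105, 49 and 56 reads in RBM3KO replicates 1, 2 and 3, against 428, 356 and 635 reads in WT replicates 1, 2 and 3. Scaled for depth, these were 6.85, 2.93 and 7.54 CPM in RBM3KO and 31.6, 20.9 and 24.9 CPM in WT. The highest RBM3KO library thus lay well under the lowest WT library, and RBM3KO replicate 2 was the lowest of the 6. The level in RBM3KO was 0.222 of that in WT (log2 fold change -2.17, SE 0.41, 95% interval -3.08 to -1.26, edgeR adjusted p = 0.0381), and Mxd3 ranked 84 of 11382 genes by p. The call ended without each library in turn, with an edgeR adjusted p of 0.0707, 0.0934 and 0.0514 without RBM3KO replicates 1, 2 and 3 and of 0.194, 0.0853 and 0.0822 without WT replicates 1, 2 and 3, while the log2 fold change stayed between -2.40 and -1.84. The B cell and plasma cell markers had lower sums in the same RBM3KO libraries, and the markers of the sorted cells had higher sums, as given above. The part of these or of the other cell markers in the Mxd3 difference was not tested.

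The counts of Mxd3 carry a limit of annotation. Of its 1327 exonic bases, 105 (7.9%) are shared with exons of Prelid1, a mitochondrial lipid transfer gene on the plus strand, and the library kit marks no strand. Prelid1 itself stood at 459.8 ± 34.995 CPM in RBM3KO and 497.3 ± 44.9 CPM in WT and was not called (estimate -0.11 on the log2 scale, edgeR adjusted p = 0.759). No source used here says how reads in the shared bases were assigned.

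MXD4 (MAD4), by contrast, is the family member associated with resting and differentiated cells. Mxd4 (chromosome 5, 34173883 to 34187720, minus strand) stood at 44.6, 52.6 and 39.8 CPM in RBM3KO and 62.9, 43.5 and 65.1 CPM in WT. WT replicate 2 fell among the RBM3KO values, so the genotypes overlapped (log2 fold change -0.32, SE 0.21, 95% interval -0.79 to 0.15, edgeR adjusted p = 0.622). The antisense gene model Gm42846 covers 13.2% of the exonic bases of Mxd4.

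Myc (chromosome 15, 61985391 to 61990374, plus strand), the driver that both MXD proteins oppose, stood at 123, 140.1 and 118 CPM in RBM3KO and 83.6, 107 and 107 CPM in WT. Every RBM3KO library lay above every WT library, by a margin smaller than the spread within WT. The difference did not pass the test over all genes (log2 fold change 0.36, SE 0.14, 95% interval 0.04 to 0.67, unadjusted p = 0.0300, edgeR adjusted p = 0.333), and 12.3% of tested genes had an unadjusted p under 0.05.

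**Figure D2:**
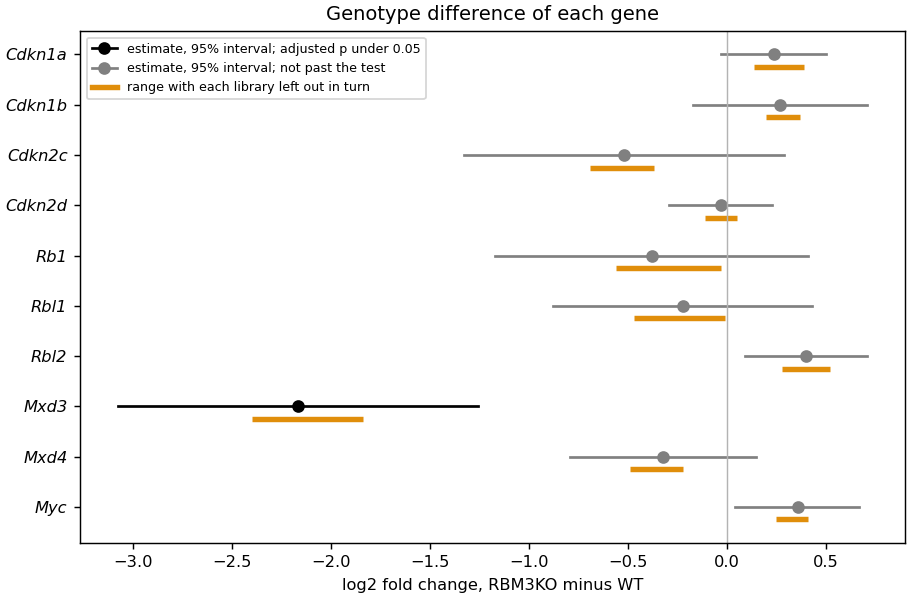
Log2 fold change (RBM3KO minus WT) of each gene with its 95% interval from the fit across all genes, and below it, in orange, the range of the estimate when each library is left out in turn. Mxd3 alone, in black, has an adjusted p under 0.05 with all 6 libraries, and its interval runs from -3.08 to -1.26.

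Start regions of these genes were compared because E2F, pocket proteins and MYC act through short motifs there. RefSeq windows of 300 bases (250 before the start and 50 from it, build GRCm38.p6, the assembly of mm10) were matched for 8 of the 10 genes, 10 windows in all, with Rb1 and Myc not matched. Searched on both strands were the E2F core (the form TTCCCGC, the form TTCGCGC, the form TTGGCGC and the form TTGCCGC), the CHR element of DREAM targets (the form TTTGAA and the form TTCGAA) and the E-box of MYC and MXD (CACGTG). The E2F core was in 3 of the 10 windows, those of Mxd3, Rbl1 and Cdkn2c, beside 16.8% of 10455 windows of tested genes and 9.57% of all 32851 windows. A CHR match was in 1 window (Rbl2), beside 13.8% of the windows of tested genes and 19.2% of all windows. The E-box was in 2, of Mxd4 and of the second start of Cdkn2c, beside 10.1% of the windows of tested genes and 7.15% of all windows. No match overlapped one of another motif. Shown are the Mxd3 window, whose gene fell, the windows of Rbl1 and Cdkn2c, which also hold an E2F core and whose genes were not called, and that of Mxd4, the other MXD gene. Capitals mark the matches, which are descriptions of letters and not evidence of binding.
Mxd3, chr13:55329682-55329981, minus strand: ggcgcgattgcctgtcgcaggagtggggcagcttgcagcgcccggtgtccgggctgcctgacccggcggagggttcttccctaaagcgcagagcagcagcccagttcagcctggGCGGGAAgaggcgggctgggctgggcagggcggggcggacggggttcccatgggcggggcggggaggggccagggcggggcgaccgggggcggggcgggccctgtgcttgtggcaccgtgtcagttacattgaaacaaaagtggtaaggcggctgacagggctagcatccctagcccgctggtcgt
Rbl1, chr2:157204485-157204784, minus strand: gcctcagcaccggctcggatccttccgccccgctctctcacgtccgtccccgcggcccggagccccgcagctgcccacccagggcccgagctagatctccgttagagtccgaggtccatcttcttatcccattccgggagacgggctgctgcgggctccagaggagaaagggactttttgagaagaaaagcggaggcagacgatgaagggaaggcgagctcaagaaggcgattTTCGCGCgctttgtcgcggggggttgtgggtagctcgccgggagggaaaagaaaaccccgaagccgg
Cdkn2c, first start, chr4:109666707-109667006, minus strand: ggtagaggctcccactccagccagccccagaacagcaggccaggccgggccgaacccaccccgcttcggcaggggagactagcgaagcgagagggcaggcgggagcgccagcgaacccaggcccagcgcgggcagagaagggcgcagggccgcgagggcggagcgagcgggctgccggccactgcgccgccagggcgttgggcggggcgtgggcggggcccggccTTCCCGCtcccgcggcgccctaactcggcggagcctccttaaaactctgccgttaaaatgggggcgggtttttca
Mxd4, chr5:34187661-34187960, minus strand: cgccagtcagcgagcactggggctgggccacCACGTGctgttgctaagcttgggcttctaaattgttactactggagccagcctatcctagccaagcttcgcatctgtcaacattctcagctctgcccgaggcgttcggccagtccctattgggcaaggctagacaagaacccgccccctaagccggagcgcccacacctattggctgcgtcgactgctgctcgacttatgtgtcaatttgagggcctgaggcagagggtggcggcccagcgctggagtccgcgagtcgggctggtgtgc
The E2F core of Mxd3 reads GCGGGAA, on the other strand, and begins 136 bases before the start, whereas those of Rbl1 and Cdkn2c lie on the strand of the gene, 17 and 25 bases before it. Mxd3 shared this motif with Rbl1 and Cdkn2c, whose estimates were also below 0, with wide intervals that included 0. The log2 fold change was -0.22 for Rbl1 (interval -0.88 to 0.43) and -0.52 for Cdkn2c (interval -1.33 to 0.29). The part of the motif in the Mxd3 difference was not tested.

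Of the CDK inhibitors, none was called, with estimates above 0 for both CIP/KIP genes and below 0 for Cdkn2c. Cdkn1a encodes p21, the inhibitor induced by p53 in response to DNA damage and by mitogenic signals. Cdkn1a (chromosome 17, 29090976 to 29100727, plus strand) stood at 497, 533 and 500.4 CPM in RBM3KO and 405, 375 and 518 CPM in WT. WT replicate 3 lay within the RBM3KO range, and the difference did not pass (log2 fold change 0.24, SE 0.12, 95% interval -0.03 to 0.50, edgeR adjusted p = 0.470). A gene model of unresolved type on the other strand covers 10.04% of its exonic bases.

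Cdkn1b encodes p27, the inhibitor that holds resting lymphocytes out of the cycle. Cdkn1b (chromosome 6, 134920401 to 134925513, plus strand) stood at 42.7, 42.4 and 42.5 CPM in RBM3KO and 31.5, 39.9 and 34.4 CPM in WT. The RBM3KO values were nearly identical and all above WT, yet the fit gave a log2 fold change of 0.27 (SE 0.20, 95% interval -0.17 to 0.71, edgeR adjusted p = 0.675). The SD was 0.165 CPM in RBM3KO and 4.28 CPM in WT.

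The INK4 gene Cdkn2c encodes p18, an inhibitor of CDK4 and CDK6 that restrains lymphocyte division. With 147, 134 and 90 reads in RBM3KO and 142, 289 and 382 reads in WT, Cdkn2c (chromosome 4, 109660876 to 109667189, minus strand) was the most thinly covered inhibitor of the 4. It stood at 9.59, 8.001 and 12.1 CPM in RBM3KO and 10.5, 16.99 and 14.96 CPM in WT. RBM3KO replicate 3 exceeded WT replicate 1, so the genotypes overlapped (log2 fold change -0.52, SE 0.37, 95% interval -1.33 to 0.29, edgeR adjusted p = 0.656). The interval is wide enough to hold no change as well as a fall of more than 1 on the log2 scale.

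Cdkn2d encodes the related INK4 protein p19. Cdkn2d (chromosome 9, 21288410 to 21291407, minus strand) stood at 169.6, 187 and 149.9 CPM in RBM3KO and 163, 182 and 172 CPM in WT. The RBM3KO values spanned the whole WT range (log2 fold change -0.03, SE 0.12, 95% interval -0.29 to 0.23, edgeR adjusted p = 0.966), and this was the narrowest interval of the 10 together with that of Cdkn1a. The estimate changed sign when RBM3KO replicate 3 was left out (0.05) and when WT replicate 2 was (0.01).

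The pocket protein genes did not pass the test either, and Rbl1 and Rbl2 were estimated on different sides of 0. RBL2 (p130) is the main pocket protein of resting cells. Rbl2 (chromosome 8, 91070057 to 91123844, plus strand) stood at 174, 202 and 145.2 CPM in RBM3KO and 123, 144.95 and 126 CPM in WT. The genotypes were separated, but RBM3KO replicate 3 and WT replicate 2 were almost level. Its log2 fold change of 0.40 was the highest of the 10 (SE 0.14, 95% interval 0.09 to 0.71, unadjusted p = 0.0153, edgeR adjusted p = 0.242). Gene models on the other strand cover 16.8% of its exonic bases, Aktip 8.5% and Gm45464 8.3%. Aktip stood at 22.4 ± 6.57 CPM in RBM3KO and 15.9 ± 6.25 CPM in WT.

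RBL1 (p107) is the pocket protein of cycling cells, and its gene is itself an E2F target. Rbl1 (chromosome 2, 157145893 to 157204534, minus strand) stood at 21.5, 17.6 and 30.6 CPM in RBM3KO and 34.4, 20.9 and 25.8 CPM in WT. Both genotypes spread over a similar range and overlapped widely (log2 fold change -0.22, SE 0.30, 95% interval -0.88 to 0.43, edgeR adjusted p = 0.864).

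Rb1, the founding retinoblastoma gene, had the lowest mean level per length of the 10 in both genotypes. Rb1 (chromosome 14, 73183673 to 73325822, minus strand) stood at 10.8, 15.0 and 13.3 CPM in RBM3KO and 12.6, 14.1 and 24.3 CPM in WT. WT replicate 3 was the one library that stood away from the rest (log2 fold change -0.38, SE 0.36, 95% interval -1.17 to 0.41, edgeR adjusted p = 0.781). Without it the log2 fold change was -0.03. Exons of Rcbtb2 on the other strand cover 105 (2.3%) of the exonic bases of Rb1. Rcbtb2 stood at 68.1 ± 14.2 CPM in RBM3KO and 57.7 ± 1.25 CPM in WT and was not called (edgeR adjusted p = 0.693).

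Levels of different genes were compared per kb of exon (TMM CPM divided by the summed length of the GENCODE M21 exons). In RBM3KO the order from the highest mean was Cdkn1a (188 ± 7.24), Cdkn2d (114 ± 12.6), Myc (52.0 ± 4.70), Rbl2 (35.3 ± 5.78), Mxd4 (11.8 ± 1.66), Cdkn1b (9.35 ± 0.0363), Rbl1 (4.78 ± 1.36), Mxd3 (4.35 ± 1.87), Cdkn2c (3.69 ± 0.772) and Rb1 (2.81 ± 0.456) CPM per kb. In WT it was Cdkn1a (159 ± 27.8), Cdkn2d (117 ± 6.59), Myc (40.6 ± 5.56), Rbl2 (26.7 ± 2.43), Mxd3 (19.4 ± 4.08), Mxd4 (14.7 ± 3.06), Cdkn1b (7.75 ± 0.940), Rbl1 (5.57 ± 1.41), Cdkn2c (5.27 ± 1.24) and Rb1 (3.65 ± 1.37) CPM per kb. The genes of p21 and p19 thus had the highest levels per length in both genotypes, and those of p27, p18 and the retinoblastoma protein were far lower. Mxd3 took place 8 in RBM3KO and place 5 in WT, and the other 9 genes kept the same order among themselves in both. In RBM3KO the libraries of neighbours in the order overlapped from Rbl1 downward, that is, for Rbl1 and Mxd3, Mxd3 and Cdkn2c, and Cdkn2c and Rb1. Among WT libraries they overlapped for Mxd3 and Mxd4, Cdkn1b and Rbl1, Rbl1 and Cdkn2c, and Cdkn2c and Rb1.

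**Figure D3:**
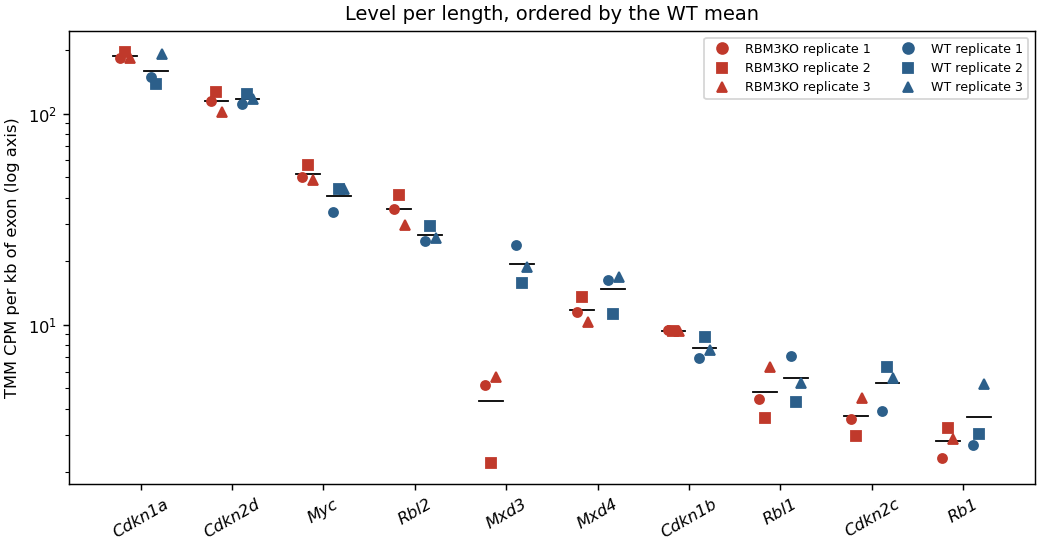
TMM CPM per kb of exon (log axis) in each library, with genes ordered by the WT mean, RBM3KO in red and WT in blue, and a bar at the mean of 3. Cdkn1a and Cdkn2d are the highest in both genotypes, and Mxd3 lies between 2.20 and 5.68 in RBM3KO and between 15.8 and 23.8 in WT.

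Ratios of read counts within a library do not depend on the scaling between libraries, and 4 pairs of the 10 genes were compared in this way. They are given without a test, and since genes differ in length, a ratio is read across libraries only. The share of all gene pairs whose ratios separate the genotypes was not computed. The 18.9% of tested genes that were separated refers to single genes and not to ratios. Each pair holds a gene whose own libraries were separated (Mxd3, Myc, Cdkn1b or Rbl2), and the pairs were chosen with earlier results known. Myc to Mxd4 and Cdkn2c to Cdkn1b each join genes with estimates on different sides of 0, and Mxd3 to Mxd4 holds the called gene. The log2 ratio of Mxd3, the proliferation-associated MXD gene, to Mxd4 was -2.70, -4.17 and -2.40 in RBM3KO and -0.99, -1.06 and -1.39 in WT. All RBM3KO libraries lay below all WT libraries, and the difference of the means was -1.95. For Myc to Mxd4 the log2 ratio was 1.47, 1.41 and 1.57 in RBM3KO and 0.41, 1.30 and 0.72 in WT, again without overlap, with a difference of 0.67. The RBM3KO libraries were tightly grouped here (SD 0.08), and the WT libraries were not (SD 0.45). For Cdkn2c to Cdkn1b, an INK4 to a CIP/KIP inhibitor, it was -2.16, -2.41 and -1.81 in RBM3KO and -1.58, -1.23 and -1.20 in WT, with a difference of -0.79 and no overlap. For Rbl1 to Rbl2, the pocket proteins of cycling and of resting cells, it was -3.01, -3.52 and -2.25 in RBM3KO and -1.83, -2.79 and -2.29 in WT. The genotypes overlapped in that pair, since RBM3KO replicate 3 was above WT replicates 2 and 3.

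**Figure D4:**
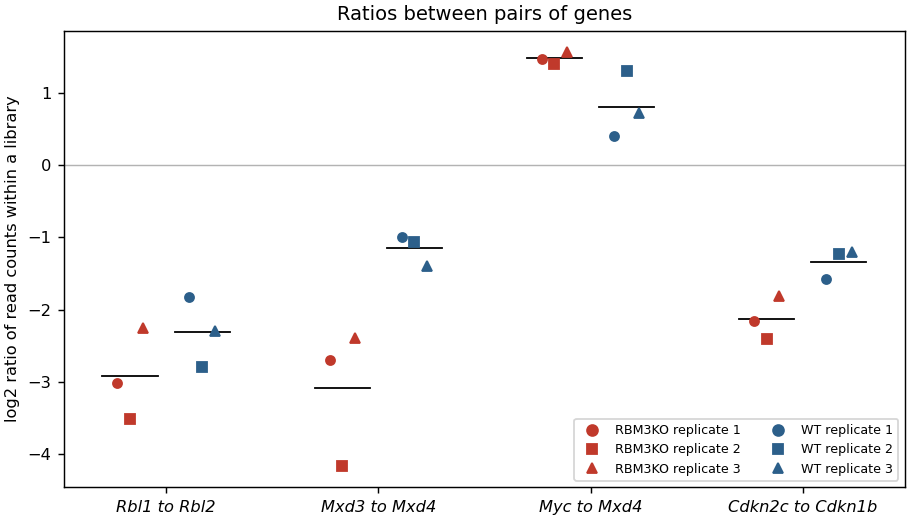
Log2 ratio of read counts within each library for 4 pairs of genes, with RBM3KO in red and WT in blue and a bar at the mean of 3. The genotypes do not overlap for Mxd3 to Mxd4, Myc to Mxd4 and Cdkn2c to Cdkn1b, and overlap for Rbl1 to Rbl2. The share of separated ratios over all gene pairs was not computed.

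Of the 26 genes listed as E2F and DREAM targets, which pocket proteins repress, 15 fell in RBM3KO and 11 did not pass the test, with a median log2 fold change over the list of -0.76 beside 0.01 over all tested genes, of which 1.00% were called lower. The list was drawn up with the fall of cell cycle genes in these samples known, so its direction is not independent evidence. The polo-like mitotic kinase gene Plk1, for example, stood at 26.8 ± 3.55 CPM in RBM3KO and 85.3 ± 8.80 CPM in WT (log2 fold change -1.67, SE 0.18, edgeR adjusted p = 0.00415). Plk1 kept its call without each library in turn. The number of targets called was 9, 8 and 12 without RBM3KO replicates 1, 2 and 3, and 3, 9 and 10 without WT replicates 1, 2 and 3. The B cell and plasma cell markers had lower sums in the RBM3KO libraries, at 34.6 to 44.5 CPM in RBM3KO and 56.3 to 78.6 CPM in WT. The markers of the sorted cells had higher sums there, as given above. The part of these or of the other cell markers in the fall of the targets was not tested. Of 17 tested E2F, DP, MuvB and B-MYB/FOXM1 partners of the pocket proteins, 2 fell and 15 did not pass (median -0.42, and -0.65 without WT replicate 2). One was the activator gene E2f1, at 36.9 ± 14.5 CPM in RBM3KO and 96.1 ± 19.9 CPM in WT (log2 fold change -1.39, SE 0.28, edgeR adjusted p = 0.0441). The other was Tfdp1, which encodes its dimer partner, at 74.6 ± 3.80 CPM in RBM3KO and 120.3 ± 4.73 CPM in WT (-0.69, SE 0.13, edgeR adjusted p = 0.0339). The number of partners called was 1, 0 and 1 without RBM3KO replicates 1, 2 and 3, and 0 when any WT library was left out. E2f1 kept its call when RBM3KO replicate 3 was left out (edgeR adjusted p = 0.0309) and lost it without each of the other 5 libraries, and Tfdp1 lost it without each of the 6.

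Of the G1 cyclins, their kinases and the CDK-activating phosphatase gene Cdc25a, 9 genes were tested and 0 passed (median log2 fold change -0.44, and -0.29 without RBM3KO replicate 2). Cdk4, the INK4 target, stood at 360.2 ± 12.4 CPM in RBM3KO and 439 ± 27.8 CPM in WT (edgeR adjusted p = 0.198), and Ccnd3, encoding cyclin D3, at 619.9 ± 72.9 CPM in RBM3KO and 618 ± 34.5 CPM in WT (edgeR adjusted p = 0.996). Beside 1.00% of all tested genes called lower, 1 of 8 tested subunits and regulators of p27, p21 and MYC turnover fell and 7 did not pass. It was Cks1b, the cofactor with which the SKP2 ligase recognises p27, at 138 ± 11.2 CPM in RBM3KO and 213 ± 25.0 CPM in WT (log2 fold change -0.62, SE 0.12, edgeR adjusted p = 0.0393). This call held without WT replicate 3 (edgeR adjusted p = 0.0455) and ended without each of the other 5 libraries, where the adjusted p ran from 0.1 to 0.208. The other inhibitor genes had few reads. Cdkn1c had 80, 52 and 1 reads in RBM3KO and 43, 43 and 0 in WT, Cdkn2b had 32, 22 and 26 in RBM3KO and 4, 30 and 64 in WT, and Cdkn2a had 0, 4 and 7 in RBM3KO and 7, 6 and 16 in WT. Of these, Cdkn1c and Cdkn2b were tested and did not pass.

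Beside Cdkn1a, 16 genes of p53 and its targets were tested and 0 passed (median log2 fold change 0.35, and 0.23 without WT replicate 1 or RBM3KO replicate 3). Estimates were above 0 for 15 of the 16, beside 5793 of 11382 over all tested genes, and the list was not tested as a set. Btg2, an antiproliferative p53 target, stood at 904.8 ± 71.0 CPM in RBM3KO and 820.2 ± 97.5 CPM in WT (edgeR adjusted p = 0.675), and Bax, a death effector, at 275 ± 31.9 CPM in RBM3KO and 244 ± 28.9 CPM in WT (edgeR adjusted p = 0.658). Beside Myc, Mxd3 and Mxd4, 9 genes of the MYC, MAX and MLX network were tested and 0 passed (median 0.14, and 0.24 and 0.26 without RBM3KO replicates 2 and 3). Mxd1, the MXD gene induced on differentiation, stood at 336 ± 40.3 CPM in RBM3KO and 243 ± 41.0 CPM in WT (log2 fold change 0.47, SE 0.14, edgeR adjusted p = 0.168). Mlx stood at 114 ± 12.7 CPM in RBM3KO and 98.8 ± 8.16 CPM in WT (edgeR adjusted p = 0.619). The lowest estimate of the network was that of Mycl1 (-1.79, SE 0.40, edgeR adjusted p = 0.0677). Mycl1 stood at 4.49 ± 0.330 CPM in RBM3KO and 15.5 ± 4.33 CPM in WT. Over all tested genes, 1.00% were called lower and the median was 0.01. Of 18 tested MYC targets, 1 fell and 17 did not pass (median -0.19), where the estimate of Myc itself was above 0. The called gene was Shmt1, a cytosolic enzyme of one-carbon metabolism, at 15.9 ± 3.84 CPM in RBM3KO and 43.1 ± 10.4 CPM in WT (-1.43, SE 0.28, edgeR adjusted p = 0.0393), and it was not called without any 1 of the 6 libraries. Of 13 tested FOXO and quiescence genes, 1 fell and 12 did not pass (median 0.19, and -0.04 without RBM3KO replicate 3). It was Klf2, a factor that keeps T cells quiescent, at 24.2 ± 3.22 CPM in RBM3KO and 58.9 ± 6.96 CPM in WT (-1.28, SE 0.21, edgeR adjusted p = 0.0172), a call lost when RBM3KO replicate 2 or any WT library was left out.

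**Figure D5:**
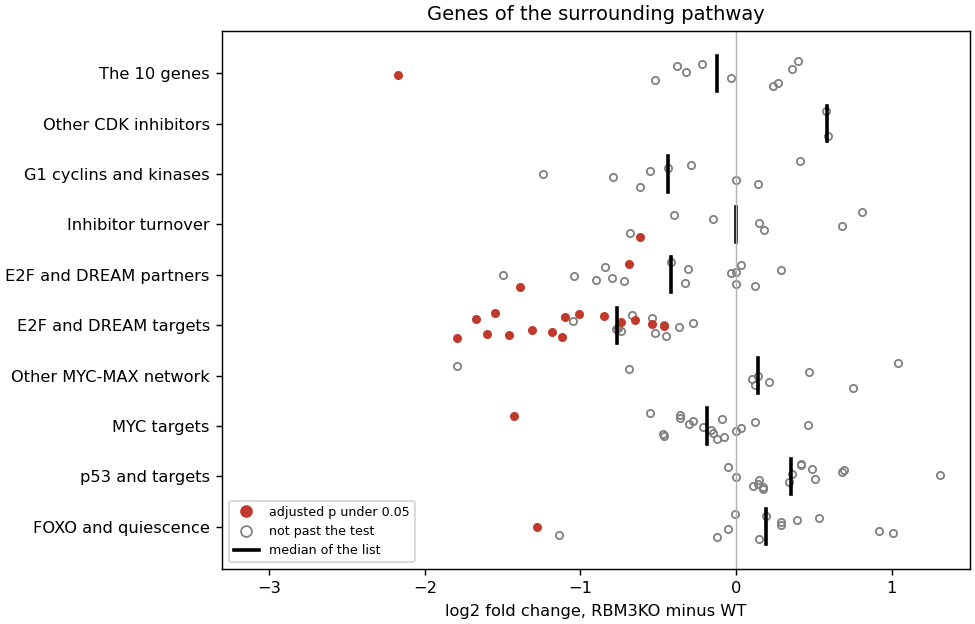
Log2 fold change (RBM3KO minus WT) of every tested gene in the 10 genes and in 9 lists of the surrounding pathway, with genes of adjusted p under 0.05 in filled red and the median of each list as a black bar. The E2F and DREAM targets lie below 0 as a list (median -0.76), while 9 of the 10 genes lie between -0.52 and 0.40.

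The genes whose 6 values were most like those of Mxd3, by the root mean square difference of centred log2 CPM among 7607 genes with a mean of at least 10 CPM, were Cdca5 (0.29), Slain1 (0.29) and Btbd2 (0.37). Cdca5, which encodes the cohesin regulator sororin, stood at 24.3, 9.43 and 17.9 CPM in RBM3KO and 64.1, 46.2 and 59.6 CPM in WT. Slain1, a microtubule plus-end gene, stood at 14.7, 11.7 and 23.6 CPM in RBM3KO and 71.8, 59.3 and 75.6 CPM in WT. Btbd2 stood at 13.1, 9.49 and 13.7 CPM in RBM3KO and 59.6, 34.9 and 74.1 CPM in WT. Like Mxd3, each of these genes was lowest in replicate 2 within both genotypes, a likeness for which they were selected. Genes were chosen here for likeness to a gene that differed between the genotypes, so their own differences are a description.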

How the data were processed

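RNA of 6 libraries was prepared with a miRNAeasy kit, Smart-seq2 and Nextera XT, per the labels' protocols. The deposited table holds raw counts, not normalized by the authors, in 1 column per sample and 1 row per gene symbol. Per the submitters' processing notes, Bowtie 1.0.0, STAR 2.6.1c, featureCounts 1.6.5 and mm10 were used. No source used here gives the annotation or the strand setting of the counting. Smart-seq2 carries no molecular identifiers and no strand in its standard form, so PCR copies are counted.

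Genes were filtered with filterByExpr by genotype (11382 of 14416 kept, 99.9% of counts), scaled by TMM and tested with edgeR 4.0.16 (R 4.3.3, robust quasi-likelihood fit, no covariate). P-values were adjusted by Benjamini-Hochberg over all tested genes, with a threshold of 0.05. The SE is the log2 fold change over the square root of F. The fit was tested on simulated data. An exact permutation test of 3 against 3 cannot go below 0.1. Whether samples came from separate animals is not stated, so the spread behind each p-value may be technical. No pair of libraries matched within sampling noise (lowest chi-square per degree of freedom 21.5).

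The genes, lists and tests were chosen with earlier results of these data known. Named beside the 10 genes are Rbm3, up to 4 called genes per list (or the 2 highest), and the 3 genes nearest to a called one. Cdkn2a was named after its counts were seen, as were Mycl1, the markers Ms4a1, Igj, Blk, Ly6c2, Thy1 and Sftpc and the phosphatase gene Cdc25a. Prelid1, Aktip, Rcbtb2 and the overlapping gene models were named for their overlap. Marker sums are CPM of the total count, and 1 marker was left out of its list and is not reported here. Coordinates are GENCODE M21 (mm10, 1-based). Alternatives were DESeq2 1.42.0, limma-voom 3.58.1, other scalings and filters, equal depth, a replicate block and leaving out each library.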

Additional observations from a re-analysis of the deposited data

How the results depend on the processing

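The fall of Mxd3 kept its call in 9 of 15 alternatives, with log2 fold changes from -2.40 to -1.84 and adjusted p from 0.000101 (DESeq2) to 0.194 (without WT replicate 1), and the 6 that ended it were those leaving out a library, where groups are smaller. The other 9 genes were called under none of the 15. The sign of Cdkn2d reversed without RBM3KO replicate 3 (0.05) and without WT replicate 2 (0.01), and over all left-out libraries its log2 fold change ran from -0.11 to 0.05. Ccnd3, at 0.00, reversed without RBM3KO replicate 1 (-0.09) and WT replicate 3 (-0.04), at equal depth (-0.01) and with the replicate block (0.00), and ran from -0.09 to 0.08 over the left-out libraries. DESeq2 called 412 genes, against 142 by edgeR, with 4 E2F and DREAM partners, 2 FOXO and quiescence genes, 1 gene of the G1 cyclins and kinases and 2 of the MYC, MAX and MLX network, Mxd1 among them (adjusted p = 0.0321). With at least 10 CPM in 3 libraries, 1 gene of that network was called, and it was not Mxd1 (edgeR adjusted p = 0.0929). Without the robust option 1 E2F and DREAM partner was called, and with limma-voom 0 MYC targets. The cause of these shifts was not tested. Without each library in turn, the count ranged from 12 to 99 over all genes, 0 to 0 of the 10 genes, 3 to 12 E2F and DREAM targets, 0 to 1 of their partners, 0 to 1 turnover genes, 0 to 1 FOXO and quiescence genes, and 0 to 0 MYC targets.

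Replicate numbers are shared between the genotypes but not said to pair samples. Deviations of same-numbered samples correlated at 0.055, 0.082 and 0.031 over genes, and each RBM3KO sample correlated best with its own number. No null value was computed for these correlations, so they do not settle whether samples were paired. With the replicate block 149 genes were called, Mxd3 among them (log2 fold change -2.25, adjusted p = 0.0284), along with 12 E2F and DREAM targets, and no count named here moved by over 1.5 times. The differences in the 4 ratios kept their sign in all settings run. With CPM of the total count in place of TMM, the order of levels per length was the same in both genotypes. Depth limits Cdkn2c, Rb1 and Mxd3 most, with fewer than 110 reads in at least 1 library.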
